A study of Iris tectorum with 6 samples.

Results

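Photoreceptor and circadian clock transcripts of Iris tectorum leaves are described here. Members were the unigenes (assembled transcripts) whose best protein hit was described as a phytochrome, cryptochrome, phototropin, LHY, Arabidopsis pseudo-response regulator (APRR), GIGANTEA, EARLY FLOWERING, CONSTANS, COP1 or ADAGIO protein, or as a protein named after one of these. This rule found 113 of the 111791 unigenes with reads. By role they were 8 phytochromes, 5 cryptochromes, 1 phototropin, 17 LHY unigenes, 8 clock pseudo-response regulators, 10 GIGANTEA, 7 EARLY FLOWERING 3 and 34 CONSTANS-like unigenes, and 23 others that carry one of the words in another name. No unigene was described with COP1 or ADAGIO. Iris tectorum, a rhizomatous garden iris, was grown flooded in swine wastewater in a glasshouse, either as plant alone or in co-culture with the microalga Dictyosphaerium sp., so both groups shared the wastewater and the flooding. Leaf libraries of 2 plant alone samples (replicates 2 and 3) and 3 co-culture samples (replicates 1, 2 and 3) were analysed, of 6 samples in the labels, while the first plant alone replicate was not analysed here. The labels give no hour of harvest.

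Phytochromes sense red and far-red light, and cryptochromes and phototropins sense blue light. In Arabidopsis the clock is a loop in which LHY and its relative CCA1 act around dawn, the pseudo-response regulators follow through the day, and GIGANTEA and EARLY FLOWERING 3 act towards evening. CONSTANS and its relatives are zinc finger factors through which day length and light reach flowering and growth genes. Transcripts of such genes cycle over the day, so their level depends on the hour at which a leaf is taken. The part of the harvest hour in the values below was not tested.

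The libraries held between 18616931 and 22975621 expected counts. All 113 members had a land plant hit, 45 of them to Asparagus officinalis, 21 to Elaeis guineensis and 19 to Phoenix dactylifera, and 0 had a green algal hit. Their median length was 1214 bases (range 210 to 6342), against 629 bases over all unigenes, and 19 were shorter than 500 bases. Reads were found for 88 members in all 5 libraries and for 5 members in 1 library only. A mean level of at least 1 FPKM (fragment counts divided by transcript length and library size) was reached by 82 members, and 21 reached 10 FPKM. As many as 76 members were contigs of a numbered assembly cluster, where near-identical contigs can share reads, so sums over clusters are given beside them.

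Most photoreceptor and clock members had a higher fitted mean in co-culture, and the differences were small. Of the 113 members, 96 passed the filter on low counts and were tested. Their median log2 fold change, co-culture over plant alone, was 0.30 (quartiles -0.09 and 0.65), where the median over all 69984 unigenes tested was 0.00. A value above 0 was found for 64 of the 96 (66.7%), against 50.1% of all unigenes tested and 54.3% of those with a protein hit. Without the members that only carry one of the words in another name, it was found for 48 of 76 (63.2%). Over the 82 members with a mean of at least 1 FPKM, the median log2 difference from the plant alone mean was 0.29, 0.42 and 0.14 in co-culture 1, 2 and 3, where it was 0.00, -0.06 and -0.08 over all unigenes at that level. Without plant alone 2 the median log2 fold change was 0.45, where that of all unigenes was 0.18, and without plant alone 3 it was 0.44 against 0.13.

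No single member passed the edgeR quasi-likelihood test after Benjamini-Hochberg adjustment, and neither did any other unigene (0% of 69984, smallest adjusted p = 0.628). At an edgeR p under 0.05 without adjustment, 3 members were higher and 1 was lower in co-culture, which is 3.12% and 1.04% of those tested, against a background of 2.75% and 4.45%. DESeq2 called 1 member higher (1.04% against a background of 0.879%) and 0 lower (background 0.97%), and at an unadjusted p under 0.05 it had 9 higher (9.38%, background 6.27%) and 1 lower (1.04%, background 5.95%). The 3 higher members were a GIGANTEA contig, a low phytochrome A unigene and the unigene named early flowering protein 1, and the lower one was a CONSTANS-LIKE 4 contig. Without co-culture 3 or without plant alone 3 there were 5 higher members at an unadjusted edgeR p under 0.05 (5.56% against 3.41% of all unigenes, and 4.76% against 2.51%), and without co-culture 2, co-culture 3 or plant alone 2 there were 0 lower ones (background 3.17%, 7.11% and 2.98%). The labels do not state whether the samples of a group were separate cultures, so the p-values cover only the spread among these libraries.

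Every co-culture library lay above both plant alone libraries for 21 tested members (21.9%, background 12.8%) and below both for 5 (5.21%, background 17.2%), judged on CPM (counts scaled to library size) with TMM scaling. In FPKM, which carries no TMM scaling, the counts were 26 (27.1%, background 13.4%) and 4 (4.17%, background 15.6%). Among all unigenes tested that had a protein hit, the CPM shares were 14.4% above and 13.2% below. With fewer libraries left to separate, the count above was 35 without plant alone 3 (36.5%, background 24.1%) and 32 without co-culture 3 (33.3%, background 20.9%). The count below was 16 without plant alone 3 (16.7%, background 30.1%) and 11 without plant alone 2 (11.5%, background 29.4%). It was 10 without co-culture 1 (10.4%, background 25.5%) and 8 without co-culture 2 (8.33%, background 20.8%). Summed over clusters, 17 of 60 entries tested (28.3%, background 12.9%) lay above and 1 (background 18.3%) below. Some of these sums include contigs of other products, such as CL8024, where 1 of 9 contigs is a member and others are described as adenylate kinase.

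**Figure D1:**
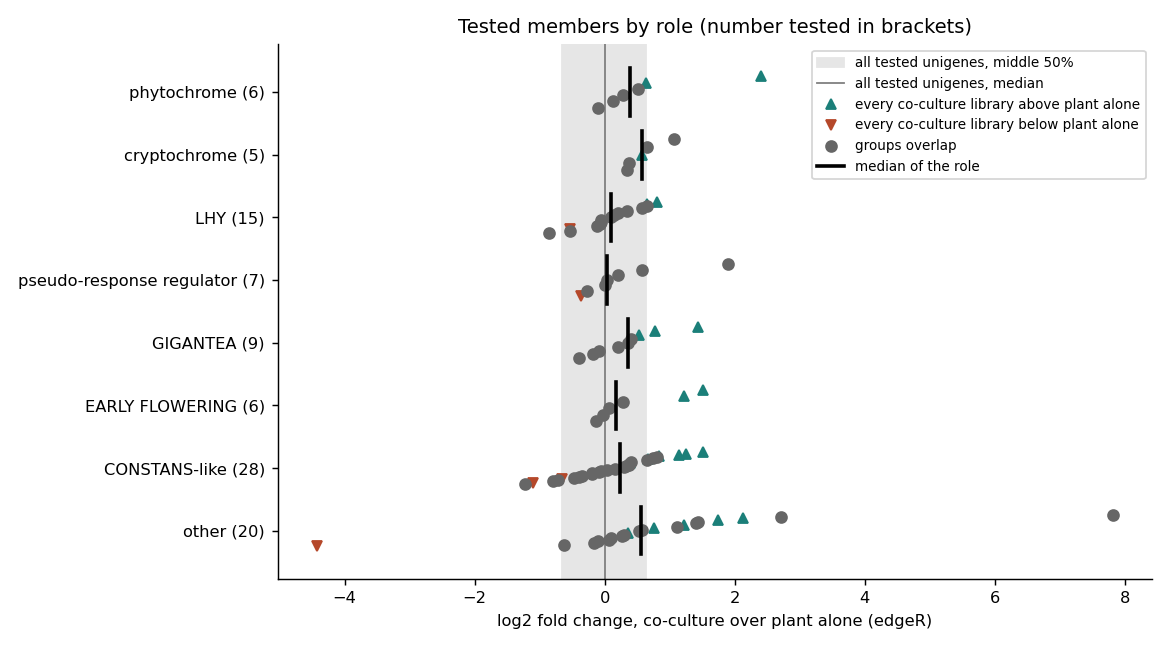
Log2 fold changes (co-culture over plant alone, edgeR) of the 96 tested members on the horizontal axis, by role, where upward triangles mark members with every co-culture library above plant alone, downward triangles the opposite, circles overlapping groups, thick lines the median of the role, and the grey band the middle 50% of all unigenes tested. The role medians lie between 0.04 for pseudo-response regulators and 0.58 for cryptochromes, inside the grey band (-0.65 to 0.63).

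Phytochromes had 6 tested members with a median log2 fold change of 0.39, and 5 were above 0. Phytochrome C (CL14107.Contig1_zju, 4432 bases), the most abundant of them, stood at 11.6 and 14.3 FPKM in plant alone 2 and 3 and at 15.9, 16.7 and 15.7 FPKM in co-culture 1, 2 and 3. All co-culture values were above plant alone in FPKM, but with TMM scaling the groups overlapped, and the log2 fold change was 0.28 ± 0.30 (SE, edgeR adjusted p = 0.828). The other contig of that cluster (CL14107.Contig2_zju) had 2.21 and 3.79 against 3.16, 2.22 and 5.12 FPKM, also overlapping, and the cluster sum gave 0.26 (edgeR adjusted p = 0.753). The annotation is not uniform here, since KEGG orthology placed both phytochrome C contigs under phytochrome A.

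Phytochrome B (CL2872.Contig1_zju), the main red light receptor of light-grown leaves, stood at 4.41 and 3.18 FPKM in plant alone and at 5.13, 7.20 and 5.41 FPKM in co-culture. The groups did not overlap, and the log2 fold change was 0.64 ± 0.38 (SE, edgeR adjusted p = 0.672). Its cluster of 4 contigs summed to 30.2 and 37.5 CPM against 48.8, 47.9 and 45.9 CPM, so the sum was also higher in every co-culture library (log2 fold change 0.49 ± 0.23, edgeR adjusted p = 0.541). CL2872.Contig3_zju of this cluster had a value below 0, at -0.10. Phytochrome A (Unigene5208_zju), the receptor for far-red and very weak light, was near the detection limit, at 0.07 and 0.03 FPKM against 0.47, 0.15 and 0.23 FPKM. Its log2 fold change of 2.41 ± 0.87 (SE, edgeR adjusted p = 0.628, DESeq2 adjusted p = 0.315) rests on these low levels, and a count of 3 already equals between 0.124 and 0.172 CPM per library.

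All 5 cryptochromes had a log2 fold change above 0, between 0.34 and 1.06, with a median of 0.58. The most abundant cryptochrome-1 contig (CL275.Contig3_zju) stood at 31.4 and 39.9 FPKM in plant alone and at 34.95, 51.4 and 53.35 FPKM in co-culture. Co-culture 1 lay between the plant alone libraries, and the log2 fold change was 0.34 ± 0.35 (SE, edgeR adjusted p = 0.816). A longer contig of the same cluster (CL275.Contig2_zju) had 20.0 and 39.0 against 41.3, 27.3 and 54.7 FPKM. Plant alone 2 was the lowest library for both, and the 3 contigs of the cluster summed gave 0.38 (edgeR adjusted p = 0.727).

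A separate cryptochrome-1 unigene (Unigene8016_zju), which KEGG placed under cryptochrome 2, stood at 10.7 and 18.4 FPKM against 19.7, 19.5 and 29.7 FPKM. It was the only cryptochrome whose groups did not overlap (log2 fold change 0.58 ± 0.37, edgeR adjusted p = 0.69), and its lowest co-culture value was close to plant alone 3. Cryptochrome DASH (Unigene62583_zju), a photolyase-like protein of organelles that was named here after its values were seen, had 3.45 and 2.86 against 5.68, 10.5 and 2.89 FPKM. Co-culture 3 was as low as plant alone for this unigene, while co-culture 2 was the highest. The only phototropin member (CL1533.Contig5_zju) was 212 bases long and too low to be tested, at 0.86 and 1.77 against 0.72, 0 and 0.26 FPKM. Its cluster summed to 41.3 and 39.6 against 29.2, 33.7 and 66.6 CPM, so the groups overlapped. The log2 fold change of the sum was 0.09 ± 0.42 (SE, edgeR adjusted p = 0.952). The other 4 contigs of the cluster included ones described as LOV domain-containing proteins. LOV domains are the blue light sensing domains of phototropins and their relatives.

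**Figure D2:**
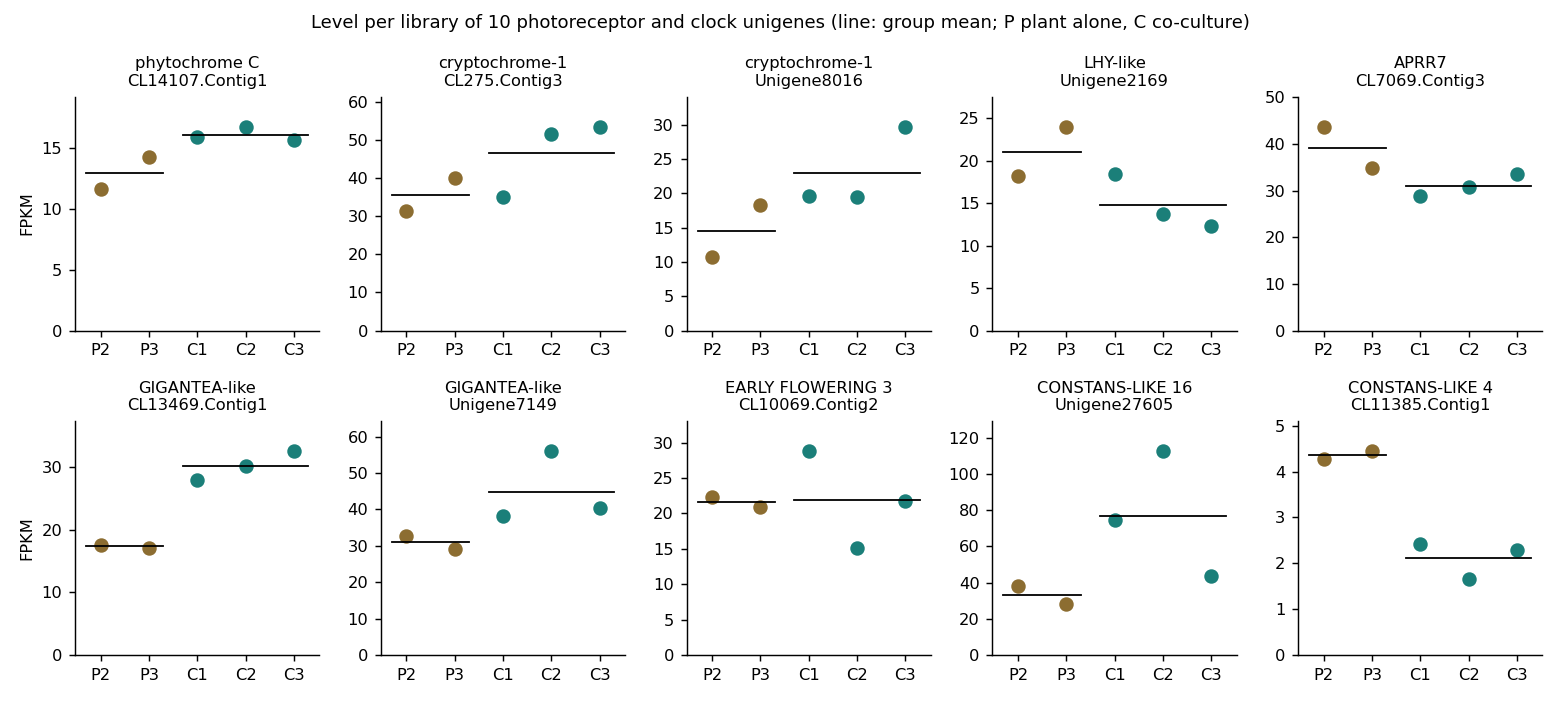
FPKM (vertical axis, from 0) of 10 members in each library (horizontal axis, P for plant alone and C for co-culture, with the replicate number), where each point is 1 library and the line is the group mean. GIGANTEA-like CL13469.Contig1 separates the groups with a narrow spread (17.1 to 17.5 against 27.9 to 32.45 FPKM), while EARLY FLOWERING 3 and LHY-like Unigene2169 overlap.

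GIGANTEA is a large protein that links the clock to light signalling and to the timing of CONSTANS. Of its 9 tested members, 6 had a log2 fold change above 0 and 3 below, with a median of 0.36. Every co-culture library was higher for 3 of them (33.3%, background 12.8%) and lower for 0 (background 17.2%). The leading contig (CL13469.Contig1_zju, 2088 bases) stood at 17.5 and 17.1 FPKM in plant alone 2 and 3 and at 27.9, 30.1 and 32.45 FPKM in co-culture 1, 2 and 3. The groups were far apart relative to their spread, at 17.3 ± 0.332 (SD, n = 2) and 30.1 ± 2.28 FPKM (SD, n = 3). In TMM-scaled CPM the co-culture spread was wider, at 37.7 ± 1.41 and 64 ± 7.26 (SD). Its log2 fold change was 0.77 ± 0.26 (SE, edgeR adjusted p = 0.628, DESeq2 adjusted p = 0.149), and the sum over its cluster had 0.76 ± 0.23 (edgeR adjusted p = 0.507, DESeq2 adjusted p = 0.115). With any 1 library left out, the log2 fold change of the contig was between 0.70 and 0.83.

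Another GIGANTEA-like unigene (Unigene7149_zju) stood at 32.6 and 29.3 FPKM against 38.1, 55.95 and 40.5 FPKM. All co-culture values were higher, co-culture 2 most of all, and the log2 fold change was 0.53 ± 0.36 (SE, edgeR adjusted p = 0.716). A partial GIGANTEA sequence of 210 bases (Unigene46037_zju) had 3.95 and 6.67 against 8.77, 19.45 and 15.0 FPKM, again without overlap (log2 fold change 1.43 ± 0.70, edgeR adjusted p = 0.632). The other 6 tested GIGANTEA members overlapped between groups, with log2 fold changes from -0.40 to 0.40. A contig that KEGG places under GIGANTEA but whose hit is an uncharacterized protein (CL9093.Contig2_zju), and which is therefore no member, was looked at after these values. It carried most of its cluster, at 19.2 and 33.0 against 36.5, 66.1 and 46.3 CPM, and the cluster sum lay higher in every co-culture library (log2 fold change 0.87 ± 0.38, edgeR adjusted p = 0.535).

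LHY, the morning factor that opposes the evening genes in Arabidopsis, had no common direction. Of 15 tested LHY members, 8 had a log2 fold change above 0 and 7 below, with a median of 0.10. The most abundant (Unigene2169_zju, 2194 bases) stood at 18.2 and 24.0 FPKM in plant alone and at 18.4, 13.8 and 12.3 FPKM in co-culture. Co-culture 2 and 3 were the lowest, but co-culture 1 lay between the plant alone values, and the log2 fold change was -0.54 ± 0.36 (SE, edgeR adjusted p = 0.707). Next by level outside cluster CL2797 was CL13712.Contig4_zju, which had 7.45 and 4.32 against 7.81, 6.30 and 4.77 FPKM, overlapping throughout (log2 fold change 0.10).

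An LHY contig of 939 bases (CL2797.Contig1_zju) was higher in every co-culture library, at 12.2 and 11.4 against 21.5, 16.2 and 19.1 FPKM (log2 fold change 0.65 ± 0.30, edgeR adjusted p = 0.628). Its cluster did not follow, with 48.3 and 38.3 against 57.9, 42.1 and 29.6 CPM and a log2 fold change of -0.00 ± 0.35. Another contig of that cluster, CL2797.Contig3_zju, was lower in every co-culture library (21.1 and 19.2 against 18.8, 12.8 and 10.3 CPM). Contigs of this LHY cluster thus differed in opposite directions, and their sum lay above plant alone in co-culture 1, between its values in co-culture 2 and below them in co-culture 3. Among LHY unigenes with reads in a single library, chosen after their values were seen, Unigene5676_zju had 10.75 FPKM in co-culture 3 and CL13712.Contig2_zju had 2.60 FPKM in plant alone 2, and both were listed in no other library.

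**Figure D3:**
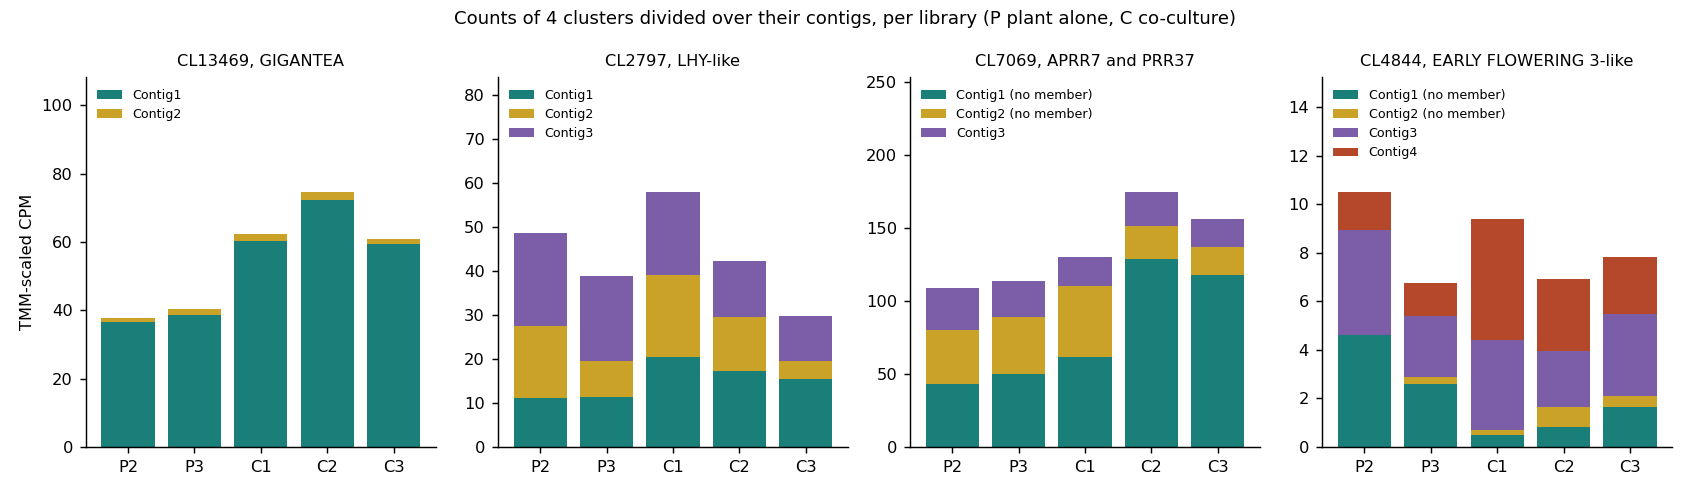
CPM (TMM-scaled, vertical axis, stacked by contig) of 4 clusters in each library (P plant alone, C co-culture), where contigs marked as no member did not match the rule. The GIGANTEA cluster is higher in co-culture as a whole, whereas the LHY-like, APRR7 and PRR37, and EARLY FLOWERING 3-like clusters hold contigs that differ in opposite directions.

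Among the pseudo-response regulators, repressors that act in sequence through the day, 4 of 7 tested members had a log2 fold change above 0 and the median was 0.04. The APRR7 contig (CL7069.Contig3_zju) stood at 43.6 and 34.7 FPKM in plant alone and at 28.7, 30.7 and 33.55 FPKM in co-culture. Every co-culture library was below plant alone, co-culture 3 by little (log2 fold change -0.37 ± 0.27, SE, edgeR adjusted p = 0.735). Its cluster also holds 2 contigs described as PRR37, which carry the same KEGG term, pseudo-response regulator 7, but fall outside the rule for members. They held most of the counts and were looked at after these values. CL7069.Contig1_zju had 43.1 and 49.9 against 61.4, 129 and 118 CPM, and CL7069.Contig2_zju had 37.3 and 39.3 against 49.1, 22.5 and 19.0 CPM. The cluster sum was therefore higher in every co-culture library, at 109 and 113 against 130, 174 and 156 CPM (log2 fold change 0.47 ± 0.26, edgeR adjusted p = 0.576), opposite in sign to its APRR7 contig.

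An APRR3 contig (CL2240.Contig2_zju), which KEGG placed under pseudo-response regulator 5, had 9.0 and 9.4 FPKM in plant alone and 8.79, 16.9 and 16.5 FPKM in co-culture. Co-culture 2 and 3 were high and co-culture 1 was the lowest of all libraries in FPKM (log2 fold change 0.58 ± 0.40, edgeR adjusted p = 0.716). In a shorter contig of this cluster (CL2240.Contig3_zju, named after its values were seen) co-culture 2 and 3 were also high and co-culture 1 lowest, at 2.84 and 4.50 against 1.66, 19.6 and 21.35 FPKM. APRR5 (Unigene10098_zju) had 15.6 and 8.84 against 10.7, 17.0 and 9.23 FPKM, with a log2 fold change of 0.04. Both unigenes described as APRR1, the Arabidopsis clock protein TOC1, had a KEGG term for a ribonuclease P subunit instead, so that their place in the clock is uncertain.

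EARLY FLOWERING 3, a member of the evening complex that represses clock and growth genes at night, had 6 tested members with a median log2 fold change of 0.17. The main contig (CL10069.Contig2_zju) stood at 22.4 and 20.9 FPKM against 28.8, 15.1 and 21.8 FPKM, with the highest and the lowest value both in co-culture (log2 fold change -0.03 ± 0.34, edgeR adjusted p = 0.988; 0.02 without TMM scaling). Of a cluster with 2 EARLY FLOWERING 3-like contigs, CL4844.Contig4_zju was higher in every co-culture library, at 2.88 and 2.29 against 8.69, 4.69 and 4.84 FPKM (log2 fold change 1.22 ± 0.59, edgeR adjusted p = 0.628). The companion CL4844.Contig3_zju had 6.60 and 3.55 against 5.42, 3.05 and 5.88 FPKM and overlapped (log2 fold change -0.13). Another contig of the cluster, CL4844.Contig1_zju, is no member because its hit is a hypothetical protein, but KEGG placed it under EARLY FLOWERING 3. It was lower in every co-culture library, at 4.6 and 2.58 against 0.49, 0.841 and 1.65 CPM. For the sum over all contigs of the cluster the value was -0.10 ± 0.37, so the difference of CL4844.Contig4_zju was not seen in the sum.

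**Figure D4:**
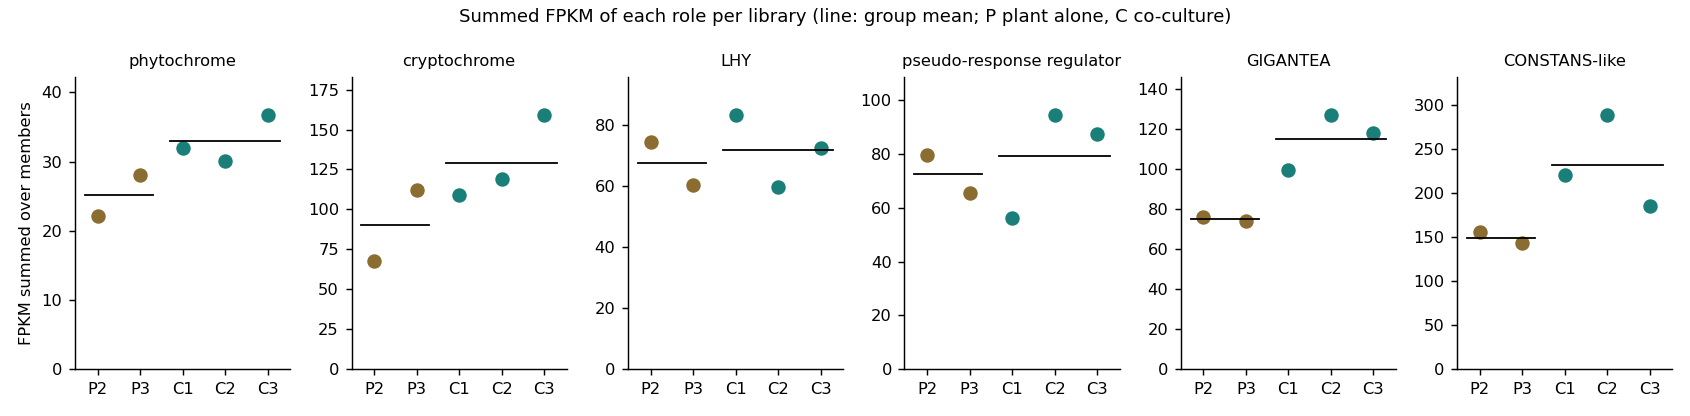
FPKM summed over the members of 6 roles (vertical axis, from 0) in each library (P plant alone, C co-culture), with the group mean as a line. GIGANTEA sums lie at 76.2 and 74.0 in plant alone and from 99.6 to 127 in co-culture, while LHY and pseudo-response regulator sums overlap between groups.

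Summed over members, GIGANTEA stood at 76.2 and 74.0 FPKM in plant alone and at 99.6, 127 and 118 FPKM in co-culture. LHY stood at 74.5 and 60.4 against 83.3, 59.7 and 72.5 FPKM. The GIGANTEA sum was higher in every co-culture library and the LHY sum was not. The LHY sum of co-culture 3 includes 10.75 FPKM of Unigene5676_zju, and that of plant alone 2 includes 2.60 FPKM of CL13712.Contig2_zju. Both unigenes were listed in no other library, and both enter the ratio below. The ratio of GIGANTEA to LHY was 1.02 and 1.22 in plant alone and 1.20, 2.14 and 1.63 in co-culture, so co-culture 1 stayed within the plant alone range and co-culture 2 and 3 were above it. Pseudo-response regulator sums were 79.5 and 65.5 against 56.2, 94.5 and 87.6 FPKM, with co-culture 1 lowest and co-culture 2 and 3 highest. They leave out the 2 PRR37 contigs of CL7069, a cluster whose sum over all its contigs was higher in every co-culture library. The sums and the ratio give a description of the libraries and carry no test.

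CONSTANS-like unigenes had 28 tested members, 16 above 0 and 12 below, with a median log2 fold change of 0.23, and 6 were higher (21.4%, background 12.8%) and 2 lower (7.14%, background 17.2%) in every co-culture library. The most abundant (Unigene27605_zju, CONSTANS-LIKE 16) stood at 37.9 and 28.15 FPKM in plant alone and at 74.3, 112.5 and 43.65 FPKM in co-culture. No co-culture value reached down to plant alone, but their spread was wide, from co-culture 3 to co-culture 2 (log2 fold change 1.25 ± 0.58, edgeR adjusted p = 0.628). A CONSTANS-LIKE 4 contig (CL8465.Contig2_zju) had 29.2 and 28.9 against 44.0, 56.9 and 37.2 FPKM, with the same order of the co-culture libraries (log2 fold change 0.66 ± 0.38, edgeR adjusted p = 0.665). In CONSTANS-LIKE 13 (CL13206.Contig1_zju) the values were 8.61 and 13.8 against 18.0, 32.85 and 24.8 FPKM, without overlap (log2 fold change 1.14 ± 0.47, edgeR adjusted p = 0.628; cluster sum 1.14, edgeR adjusted p = 0.526).

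Another CONSTANS-LIKE 4 contig, CL11385.Contig1_zju, went the opposite way. It stood at 4.27 and 4.44 FPKM in plant alone and at 2.41, 1.66 and 2.28 FPKM in co-culture, where every library was lower by a wide margin relative to the spread. The log2 fold change was -1.10 ± 0.41 (SE, edgeR adjusted p = 0.628, DESeq2 adjusted p = 0.147), and the cluster sum had -1.08 ± 0.37 (edgeR adjusted p = 0.518). Both CONSTANS-LIKE 4 contigs have the same description, so 1 name covers unigenes with opposite differences. Among clusters, the 3 contigs of CL12619 (CONSTANS-LIKE 13 and 14), named after their values were seen, summed to 11.1 and 16.9 against 23.9, 30.7 and 25.3 CPM (log2 fold change 0.93 ± 0.31, edgeR adjusted p = 0.517). KEGG placed 21 of the 34 CONSTANS-like members under CONSTANS and 3 under a pseudo-response regulator, and gave the other 10 no term.

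Of the 20 tested members that only carry one of the words in their name, 16 had a log2 fold change above 0. The unigene named early flowering protein 1 (CL6037.Contig1_zju) was the most abundant of all members and the only one called by DESeq2. It stood at 1228 and 688 FPKM in plant alone 2 and 3 and at 2391, 5310 and 4987 FPKM in co-culture 1, 2 and 3. The log2 fold change was 2.13 ± 0.68 (SE, DESeq2 adjusted p = 0.0235, edgeR adjusted p = 0.628), a 4.37-fold higher fitted mean, and lay between 1.84 and 2.52 with any 1 library left out. The annotation of this unigene goes against a clock role: the files give it gene ontology terms for defence response and response to biotic stimulus and no KEGG term, and the other contig of its cluster is described as a pathogenesis-related protein. It took from 0.0727% to 0.129% of the expected counts in plant alone and from 0.252% to 0.559% in co-culture.

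The phytochrome-associated phosphatase contigs, catalytic subunits that act on phytochromes in Arabidopsis, overlapped between groups in TMM-scaled CPM. CL3019.Contig1_zju had 25.4 and 31.1 against 31.1, 25.4 and 36.7 FPKM, and CL3019.Contig2_zju had 9.95 and 14.0 against 14.9, 15.0 and 14.8 FPKM, without overlap on that scale. Their log2 fold changes were 0.07 and 0.27. PHOTOPERIOD-INDEPENDENT EARLY FLOWERING 1, a chromatin remodelling protein, was higher in every co-culture library when the 3 contigs of its cluster CL3545 were summed, at 21.5 and 18.2 against 25.9, 35.7 and 33.5 CPM (log2 fold change 0.68 ± 0.27, edgeR adjusted p = 0.531). Of the APRR2 unigenes, which are not clock pseudo-response regulators, the CL11060 contigs, placed by KEGG under type B response regulators, replaced each other between libraries. KEGG gave the other APRR2 unigenes no term. CL11060.Contig4_zju had 7.04 and 2.27 FPKM in plant alone and 0.62, 0 and 0 in co-culture, and CL11060.Contig3_zju was listed only in co-culture 2 and 3, at 1.78 and 0.48 FPKM. In the sum over that cluster the groups overlapped (19.0 and 4.14 against 6.41, 4.45 and 1.23 CPM).

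Some contigs and their clusters disagreed. Of the 96 tested members, 15 had a cluster sum with the opposite sign of log2 fold change. Some of these values lay near 0, such as CL10069.Contig2_zju with -0.03 and its sum with 0.01. A single unigene is its own sum, and the same count over all unigenes was not made. On cluster sums, edgeR called 0 of 60 entries, with 5 higher and 1 lower at an unadjusted p under 0.05 (background 3.07% and 6.36% of 44185), and DESeq2 called 1 higher (background 0.559%) and 0 lower (background 1.26%). The higher call was the cluster of early flowering protein 1 (log2 fold change 2.13 ± 0.64, DESeq2 adjusted p = 0.0103). A log2 fold change above 0 was found for 42 of the 60 sums, against 49.6% of all sums, and a value below 0 for the others, against 50.4%.

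The 3 co-culture libraries did not move alike. Judged on TMM-scaled CPM, 35 (43.8%) of the 80 tested members with a mean of at least 1 FPKM were highest in co-culture 2. That library was the highest for 24% of all such unigenes. Co-culture 3 was the lowest library for 25 of the members (31.2%, against 23.2% of all such unigenes) and plant alone 2 for 24 (30%, against 19.8%). The TMM factors were 0.8896 for co-culture 2 and 1.183 for co-culture 3, so the order of these libraries can differ in FPKM. The leading GIGANTEA contig had 30.1 and 32.45 FPKM in them, but 72.4 and 59.4 CPM. Leaf marker transcripts differed between the same libraries. Small subunit of Rubisco, chlorophyll a-b binding, plastocyanin and phosphoribulokinase unigenes, 72 in all, summed to 9730 and 5840 CPM in plant alone and to 21500, 34100 and 3300 CPM in co-culture, so co-culture 2 was highest and co-culture 3 lowest. None of these 4 marker groups was at 0 in any library. The sums over all 72 ranged from 5840 to 9730 CPM in plant alone and from 3300 to 34100 CPM in co-culture. The 369 unigenes with a green algal hit summed to 2730 and 3550 CPM in plant alone and to 2110, 2250 and 1960 CPM in co-culture. The part of these differences in the results was not tested, and in whole leaves fewer cells of a type and less RNA per cell cannot be told apart.

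**Figure D5:**
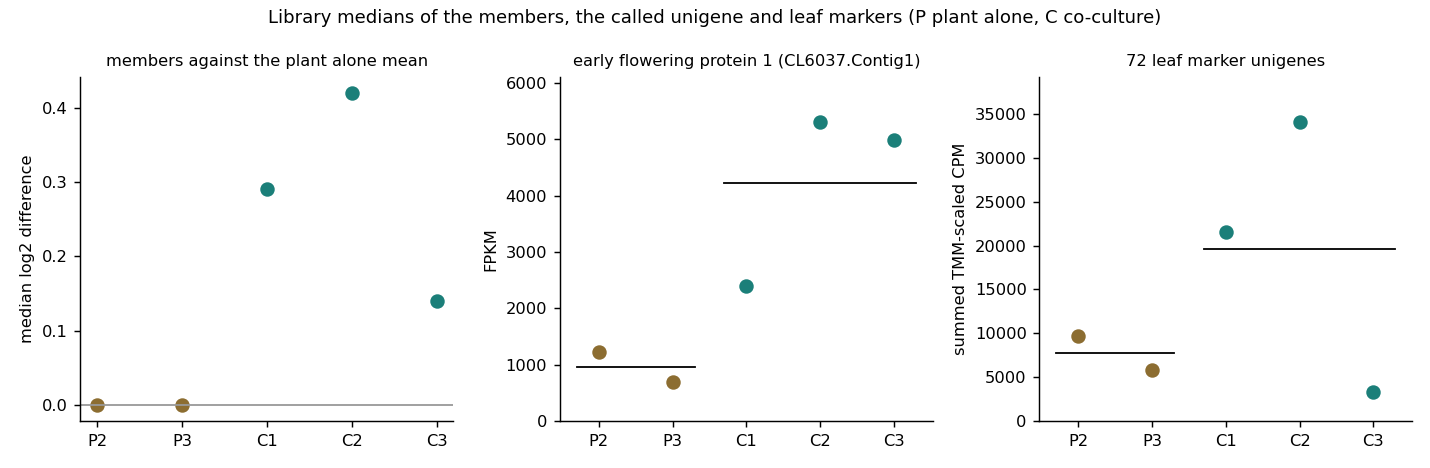
Left, the median over members of the log2 difference of each library from the plant alone mean, over 82 members, where co-culture libraries lie at 0.29, 0.42 and 0.14 and the plant alone libraries mirror each other around 0 because their own mean is the reference. Middle, FPKM of the unigene named early flowering protein 1, and right, the summed CPM of 72 leaf marker unigenes, which is lowest in co-culture 3 (P plant alone, C co-culture, line for the group mean).

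Other genes of light signalling and the clock were taken from a list of 289 unigenes, of which 248 were tested. Their median log2 fold change was 0.19, with 146 above 0 (58.9%, background 50.1%). At an unadjusted edgeR p under 0.05, 6 were higher (2.42%, background 2.75%) and 4 lower (1.61%, background 4.45%). DESeq2 called 2 higher (0.806%, background 0.879%) and 1 lower (0.403%, background 0.97%). CCA1-like (Unigene5677_zju), the partner of LHY, had 128 and 81.7 against 111, 80.3 and 69.9 CPM, with overlapping groups and a log2 fold change of -0.27. REVEILLE 6 (Unigene6058_zju), an activator of evening genes in Arabidopsis, overlapped too, at 81.0 and 91.7 against 103, 162 and 51.9 CPM. LNK2 (CL9642.Contig5_zju), a coactivator that works with REVEILLE proteins, had 94.9 and 140 against 122, 149 and 116 CPM. TIME FOR COFFEE-like (Unigene53356_zju), a clock regulator, was lower in every co-culture library, at 52.6 and 43.8 against 30.1, 33.6 and 34.1 CPM (log2 fold change -0.56 ± 0.25, edgeR adjusted p = 0.628). Of the 11 tested TIME FOR COFFEE unigenes, this one included, 7 had a log2 fold change above 0 and 4 below, with a median of 0.20.

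Some light signalling genes of the list differed widely between the co-culture libraries. HY5 (Unigene60865_zju), which promotes light responses downstream of the photoreceptors, had 44.9 and 34.5 CPM in plant alone and 30.3, 222 and 7.05 CPM in co-culture, so that its highest and lowest values fell in the same group. B-box protein 24 (CL1003.Contig1_zju) and SPA1-RELATED 3 (CL4598.Contig2_zju), which restrain light responses, shared the order with co-culture 2 highest and 3 lowest among the co-culture libraries. Their values were 74.1 and 75.5 against 113, 236 and 61.4 CPM for the first, and 57.8 and 35.5 against 50.3, 101 and 20.2 CPM for the second. Root phototropism protein 3 (Unigene44748_zju), which works with phototropins, had 20.2 and 55.9 against 57.8, 141 and 81.0 CPM, higher in every co-culture library (log2 fold change 1.29 ± 0.63, edgeR adjusted p = 0.629). Co-culture 1 was close to plant alone 3. Of the 5 tested unigenes with root phototropism or NPH3 names, this one included, 3 had a log2 fold change below 0 and the median was -0.60.

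UVR8 (CL13261.Contig2_zju), the ultraviolet-B receptor, PIF4-like (CL15830.Contig1_zju), a growth factor degraded through phytochrome, and cyclic dof factor 3 (CL4354.Contig2_zju), a repressor of CONSTANS, overlapped between groups, with log2 fold changes of -0.03, -0.15 and 0.19. DET1 (Unigene20854_zju), XAP5 CIRCADIAN TIMEKEEPER (CL5488.Contig4_zju) and a DDB1- and CUL4-associated factor homolog 1 fragment (Unigene45951_zju) also overlapped, with 0.18, -0.20 and -0.21. None of these 6 had an edgeR p under 0.05.

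FAR1-RELATED SEQUENCE 6 (Unigene730_zju), a relative of the phytochrome A signalling factor FAR1, was the only unigene of the list called lower by DESeq2. It stood at 171 and 73.2 CPM in plant alone and at 23.3, 23.2 and 33.9 CPM in co-culture (log2 fold change -2.19 ± 0.45, edgeR adjusted p = 0.628, DESeq2 adjusted p = 0.0126). Plant alone 2 was far above plant alone 3, and without plant alone 2 the log2 fold change was -1.46. A PIF3-like contig (CL13370.Contig4_zju) had no reads in either plant alone library and 5.17, 6.87 and 3.18 CPM in co-culture, at least 61-fold higher against 3 counts over the group (DESeq2 adjusted p = 1.73e-05). The sum over its cluster overlapped, at 8.99 and 6.13 against 13.1, 21.3 and 5.52 CPM, and its log2 ratio in the authors' deposited table, whose plant alone column includes reads not analysed here, was 2.85. A cyclic dof factor 2 contig (CL113.Contig7_zju) likewise went from 0 to between 0.891 and 1.24 CPM, at least 13-fold higher (DESeq2 adjusted p = 0.00922), while its cluster had a log2 fold change of 0.06 and the authors' deposited table a log2 ratio of 0.70.

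The 3 remaining contigs named by their edgeR p showed the same contrast with their clusters. B-box 22-like contigs CL7395.Contig3_zju and CL7395.Contig2_zju had 31.7 and 8.31 against 4.63, 5.14 and 4.04 CPM, and 24.8 and 6.59 against 5.03, 1.29 and 1.53 CPM. Both were lower in every co-culture library (log2 fold changes -2.12 and -2.58, edgeR adjusted p = 0.628 for both), but plant alone 2 held most of the difference, and without it they were -0.86 and -1.34. The cluster sum had 0.26. A DDB1- and CUL4-associated factor 13 contig (CL7775.Contig2_zju) had 5.70 and 4.36 against 14, 22.3 and 11 CPM (log2 fold change 1.65 ± 0.46, edgeR adjusted p = 0.628), with a cluster sum of 0.02.

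In the authors' deposited table, 110 of the 113 members had a log2 ratio between the groups, above 0 (higher in co-culture) for 77 and below 0 for 33, with a median of 0.48 against 0.12 over all unigenes. The leading GIGANTEA contig had 0.91 in the authors' deposited table, the lower CONSTANS-LIKE 4 contig -1.27 and early flowering protein 1 a ratio of 2.09.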

How the data were processed

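Leaf RNA was sequenced on a BGISEQ-500 instrument, and the submitters' processing notes name Bowtie2, RSEM and DESeq2, with no versions. Per unigene of an assembled transcriptome, the deposited library files hold an expected count from RSEM and FPKM, per the file headers. The authors' deposited comparison holds a q-value, pooled expected counts and a log2 ratio (W/N, with W the co-culture), as its header states. It is labelled with DEGseq, which the processing notes do not name, so the tool behind its ratios is uncertain. The pooled plant alone column sums to 59625013 and includes reads not analysed here. The assembler and the hour of harvest are not given in the sources used here. Files of 2 plant alone and 3 co-culture libraries were used, and no batch is named in the labels.

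Expected counts were rounded, unigenes not listed in a library were set to 0, and the tables were joined with pandas 2.3.3 (Python 3.11.15). edgeR 4.0.16 (R 4.3.3, filterByExpr, TMM scaling, quasi-likelihood F test, no replicate block) was fitted on all unigenes, with Benjamini-Hochberg adjustment over all 69984 tested and a threshold of 0.05. The biological coefficient of variation was 0.773. DESeq2 1.42.0 and limma 3.58.1 were alternatives, and DESeq2 gave no adjusted p for 2843 unigenes, 1 of them a member. SE is the size of the log2 fold change divided by the square root of F, an approximation. FPKM compares unigenes per length, and CPM uses TMM library sizes. Library medians use log2(CPM + 0.5). Group overlap was judged on CPM, and the floors (3 counts) cover counting error only. The scripts were tested on simulated data.

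The members, the lists of other light, clock and leaf marker genes and the tests were chosen with earlier results of these data known. A word pattern for PIF was narrowed after the annotation was seen, to leave out a DNA helicase of that name. Named were, per role, the 3 members with the highest mean FPKM and their cluster sums, up to 5 members per direction with the smallest edgeR p under 0.05 or DESeq2 adjusted p under 0.05, and from the other list up to 3 per direction by edgeR p and the most abundant unigene per keyword if at least 5 FPKM. Unigenes and clusters named beyond this rule were chosen after their values were seen. Same-numbered libraries were checked for pairing, and the labels link them only by number.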

Additional observations from a re-analysis of the deposited data

How the results depend on the processing

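With any alternative but DESeq2, which called 1, edgeR and limma called 0 members. The count of higher members at an unadjusted p under 0.05, 3 as reported, was 9 by DESeq2 (9.38%, against 6.27% of all unigenes), 5 by limma on log2(FPKM + 0.1) (5.21% against 3.11%) and 5 on cluster sums (8.33% against 3.07%), and 2 to 5 with 1 library left out (1.92% to 5.56%, against 1.95% to 4.75%). The count of lower ones, 1 as reported, was 0 without TMM scaling (background 3.3%), 0 without the filter on low counts (background 3.46%), and 0 to 1 with 1 library left out (background 1.6% to 7.11%). The median log2 fold change of members was 0.32 to 0.45 with 1 library left out (all unigenes -0.03 to 0.18). Their count above 0 was 42 (of 60) on cluster sums and 60 to 76 with 1 library left out. Between 90 and 105 members were tested in the latter fits, so these counts cannot be set directly beside that of the main fit. Members above plant alone in every co-culture library were then 28 to 35 (background 18% to 25.7%), and members below 7 to 16 (background 20.8% to 30.1%). With replicate number as a block, 0 members were called, 2 were higher (background 3.28%) and 1 lower (background 3.43%) at an unadjusted p under 0.05, and the median was 0.24 (all unigenes -0.09). The labels state no pairing beyond the number. Deviations of same-numbered libraries from their group means correlated at 0.0385 and 0.0782, over 2 pairs. The deviations of the 2 plant alone libraries mirror each other, so this check cannot decide whether the libraries were paired.

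Of 66 single unigenes and cluster sums followed, 41 kept their sign in every setting. Signs turned under the block for CL13712.Contig4 (-0.10), DET1 (-0.14), SPA1-RELATED 3 (-0.00) and the sums of CL10069 (-0.22) and CL13712 (-0.16). They also turned without TMM scaling for EARLY FLOWERING 3 CL10069.Contig2 (0.02), and by limma at pseudocounts of 0.1 and 1 for HY5 (-0.08 and -0.04) and the sums of CL7395 (-0.07 and -0.06) and CL7775 (-0.00 and -0.00). The LHY sum of CL2797 was 0.03 by DESeq2 and 0.03 with its size factors, 0.29 and 0.28 by limma, 0.00 without TMM scaling and 0.05 without the filter. With 1 library left out, the ranges that crossed 0 were -0.27 to 0.66 for phytochrome C CL14107.Contig2, -0.07 to 1.05 for cryptochrome-1 CL275.Contig2, -0.18 to 0.47 for LHY CL13712.Contig4, -0.36 to 0.43 for APRR5, -0.27 to 0.14 for EARLY FLOWERING 3 CL10069.Contig2, -0.44 to 0.30 for CL4844.Contig3, -0.12 to 0.32 for CL3019.Contig1 and -0.01 to 0.63 for CL3019.Contig2. They were also -0.53 to 0.09 for CCA1-like, -0.64 to 2.26 for DET1, -1.08 to 1.67 for HY5, -0.13 to 0.46 for LNK2, -0.14 to 0.62 for REVEILLE 6, -0.39 to 0.70 for SPA1-RELATED 3, -0.30 to 0.21 for UVR8 and -0.38 to 0.02 for XAP5. For cluster sums they were -0.13 to 0.15 for CL10069, -0.01 to 0.16 for CL113, -0.41 to 0.67 for CL13712, -0.31 to 0.41 for CL1533, -0.18 to 0.26 for CL2797, -0.03 to 0.40 for CL3019, -0.39 to 0.29 for CL4844, -0.30 to 0.65 for CL7395 and -0.08 to 0.16 for CL7775. The cause of these turns was not tested. Low counts limit phytochrome A, the phototropin member and most short fragments, where 3 counts equal 0.124 to 0.172 CPM.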
